A study of Mus musculus with 47 samples.

Results

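The clustered protocadherins are the 58 mouse genes whose symbols begin with Pcdh followed by a, ac, b, ga, gb or gc and a number, out of 35856 symbols measured. They comprised 14 alpha, 22 beta and 22 gamma genes and were matched by symbol; the rule uses no measured value, although the family was picked with earlier results of these data known. The 3 clusters lie one after the other on mouse chromosome 18 (RefSeq, GRCm38.p6), the alpha genes between 36930285 and 37188897, the beta genes between 37264998 and 37521419 and the gamma genes between 37661775 and 37841873. At least 1 read was counted for 55 of the 58 genes in at least 1 of the 47 libraries. Pcdha4, Pcdha6 and Pcdha7 were at 0 in all 47.

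Clustered protocadherins are cadherin-type adhesion proteins of the cell surface that neurons use to tell their own branches from those of other neurons. Each alpha or gamma gene contributes its own promoter and its own large first exon, which encodes the extracellular part and the membrane span, and is spliced to constant exons that its cluster shares; beta genes have a single coding exon and no constant part. Individual neurons switch on different sets of these promoters, a choice that in mouse involves CTCF, cohesin and DNA methylation, whereas the C-type genes at the ends of the alpha and gamma clusters (Pcdhac1, Pcdhac2, Pcdhgc3, Pcdhgc4 and Pcdhgc5) follow other rules and are used more evenly.

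Polyadenylated RNA was sequenced from 4 mouse C57BL/6 embryonic stem cell (ESC) lines, all of which carried Tir1. This plant receptor joins auxin to a tag called the auxin-inducible degron (AID) and has proteins that bear the tag destroyed. The SUZ12-AID, AID-JARID2 and MTF2-AID lines each had the degron on a subunit of Polycomb repressive complex 2 (PRC2), the enzyme that methylates lysine 27 of histone H3; SUZ12 is a core subunit, and JARID2 and MTF2 belong to alternative forms of the complex. The untagged line carried Tir1 but no degron. Each line was taken with auxin (50 µM indole-3-acetic acid) and without it, as neural progenitor cells (NPCs) and as ESCs. NPCs were made with 10 ng/ml bFGF for 72 h followed by 500 nM SAG, a Hedgehog pathway agonist, for 48 h, and had auxin for 5 days; ESCs had auxin for 12 h in medium with the MEK inhibitor PD0325901 at 1 µM, the GSK3 inhibitor CHIR99021 at 3 µM, and LIF at 100 U/ml. The 16 groups had 3 biological replicates each, except the SUZ12-AID NPCs with auxin, which had 2, giving 23 NPC and 24 ESC libraries. Replicate numbers are those of the sample titles; those 2 libraries are titled 1 and 2, while their library names carry the numbers 2 and 3. In the MTF2-AID and AID-JARID2 lines the NPC titles give day 0, whereas their other labels give NPCs and 5 days.

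Values were deposited as transcripts per 1000000 (TPM), in which the 47 libraries each sum to 1000000, and whole reads recovered from the TPM steps put the depth at 3.24 to 8.71 M reads per library (median 5.39 M, in units of 1000000). At that depth 1 TPM of a median alpha, beta or gamma gene stood for 11.6, 7.25 or 10.7 reads, so that many members rested on few reads. Members tested were those with at least 1 TPM in at least 2 libraries of a fit, and differences are limma values on the log2(TPM + 0.5) scale, which understates the change of low genes; a call is a Benjamini-Hochberg adjusted p under 0.05 over all genes tested, two-sided. The degron acts on protein, so the mRNA does not check the labels: Suz12 averaged 163 ± 5.09 TPM in SUZ12-AID NPCs with auxin (SD, n = 2) and 77.8 ± 1.50 TPM without (n = 3), Jarid2 56.6 ± 7.36 TPM in AID-JARID2 NPCs with auxin and 35.6 ± 3.31 TPM without, and Mtf2 24.3 ± 2.56 TPM in MTF2-AID NPCs with auxin and 21.1 ± 0.547 TPM without (n = 3 each). Markers of the neural lineage were higher in untreated untagged NPCs than in ESCs: progenitor markers summed to 4497 TPM in NPCs and 765 TPM in ESCs, neuron markers to 4727 TPM in NPCs and 479 TPM in ESCs, and pluripotency markers to 393 TPM in NPCs and 7831 TPM in ESCs. Sox2 is on both the progenitor and the pluripotency list.

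How reads were counted limits what single members can show. The gene lengths implied by the reads recovered were 5206 to 5422 bases for alpha and 4480 to 5080 bases for gamma genes, against shared constant exons of 2860 and 2119 bases, so a length that holds the shared exons was assigned to every alpha and gamma gene. Reads per member over all 47 libraries nevertheless ran from 9 to 303 among the alpha genes with reads and from 137 to 20416 among gamma genes, so reads of the shared exons were not counted in full for each member; how they were assigned is not given in the sources used. The beta genes, with implied lengths of 2319 to 5271 bases and 16 to 1946 reads, are close paralogs of each other. Levels are therefore compared within a cluster and not between clusters, and a single member's level is uncertain to the extent that reads were shared with a near-identical one. The first exons of the 3 genes at 0 overlap other annotated gene models, by 2410 of 2904 bases for Pcdha4, 222 of 2507 bases for Pcdha6 and 338 of 2477 bases for Pcdha7.

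**Figure D1:**
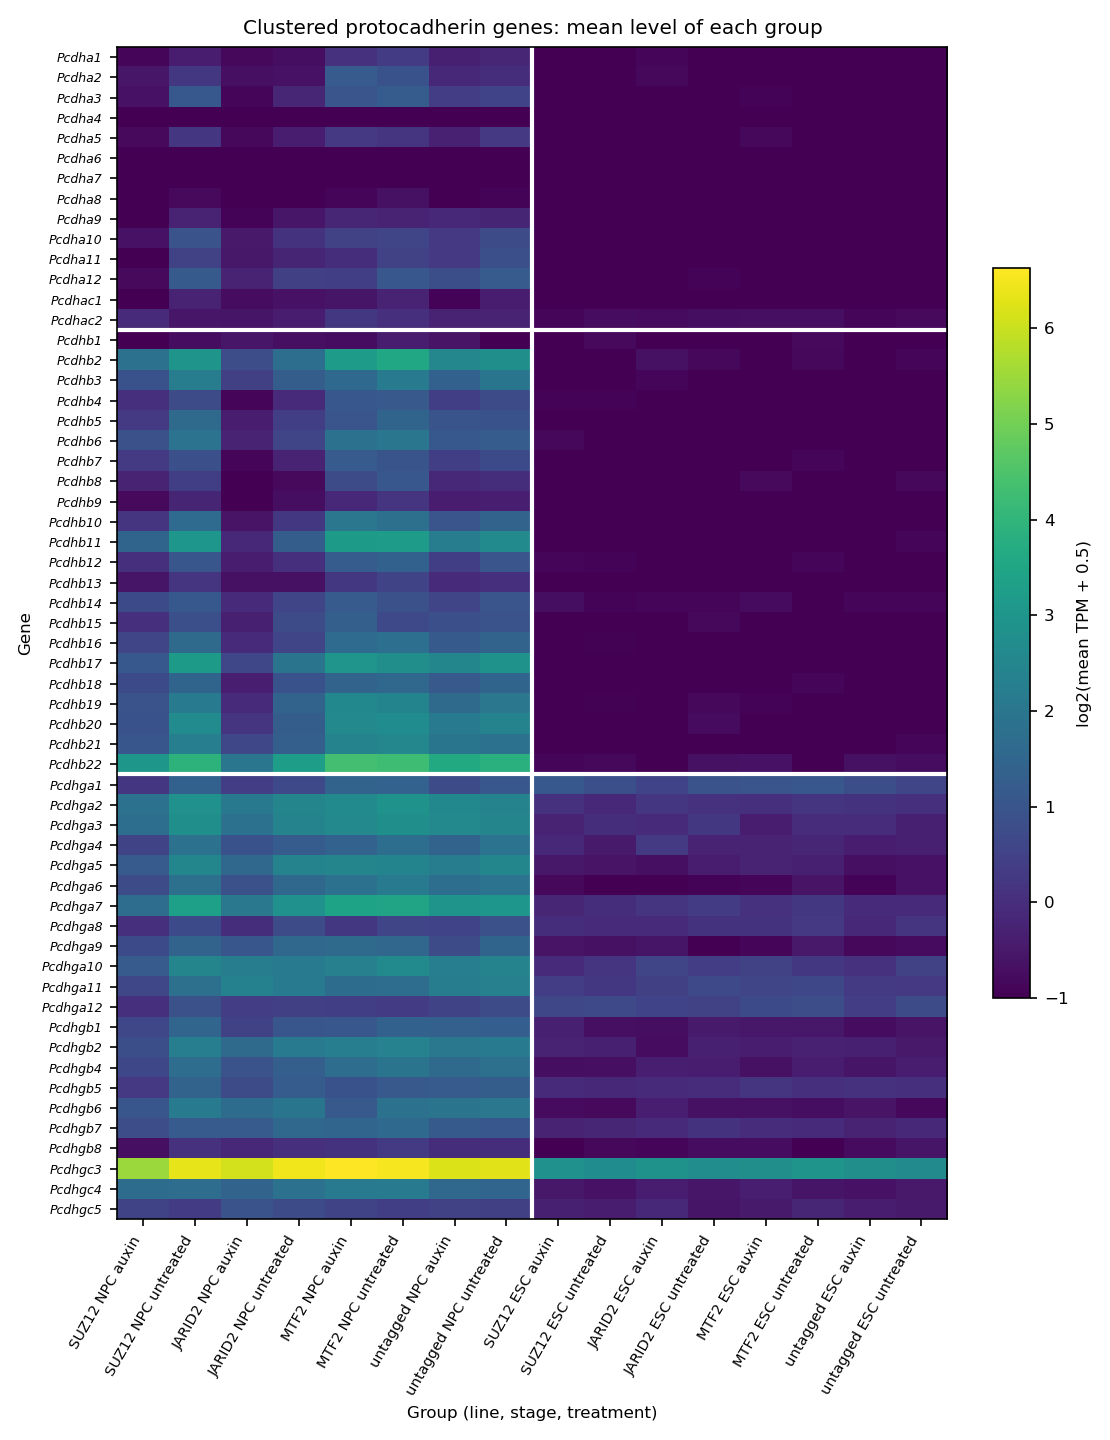
Mean expression of the 58 clustered protocadherin genes (rows, by number within the alpha, beta and gamma clusters) in the 16 groups (columns, NPC groups left of ESC groups and, within a line, auxin left of untreated), as log2(mean TPM + 0.5). Darker cells are lower. The NPC columns show signal in all 3 clusters, and the SUZ12-AID and AID-JARID2 auxin columns are darker. The ESC columns show signal almost only in the gamma cluster. Pcdha4, Pcdha6 and Pcdha7 are at 0 in every column.

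The NPC and ESC stages differed most. In untagged cells without auxin, gene expression summed over the alpha cluster was 7.93, 7.32 and 8.10 TPM in the NPC libraries and 0, 0.150 and 0.0773 TPM in the ESC libraries. The beta cluster summed to 70.6, 62.4 and 63.9 TPM in NPCs and to 0.140, 0.282 and 0.568 TPM in ESCs. The gamma cluster summed to 146, 144 and 134 TPM in NPCs and to 14.1, 16.5 and 12.1 TPM in ESCs. All 3 clusters were thus higher in each NPC library than in any ESC library, and the gamma cluster alone had more than a trace of signal in ESCs, where it was 9.93 times lower. In reads over 3 libraries each, NPCs had 341 alpha, 1855 beta and 5490 gamma reads, against 3 alpha reads (all of Pcdhac2), 7 beta reads and 479 gamma reads in ESCs. A lower value in bulk RNA can stand for fewer cells of a type or for less RNA per cell, and these cannot be told apart here.

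Of 46 members tested, 44 were higher in NPCs and 0 lower (limma), among 17760 genes of which 47.6% were called higher and 28.5% lower. The called members were 5 of 5 alpha, 20 of 20 beta and 19 of 21 gamma genes. The median log2 difference of the members was 2.19, or 2.97 with the 19 members that were at 0 in a group set at the bound that 3 reads allow, beside 0.28 over all genes tested. Most of these members passed the 1 TPM filter only through NPC libraries and so had to differ, and neither the count nor the median is given as support. Without the filter, 50 of the 55 members with reads were called higher and 0 lower, beside 33.4% of all genes called higher and 19.8% lower. Median-of-ratios scaling put the median over all genes at −0.00, with 38.3% called higher and 37.4% lower, and 43 of 46 members higher and 0 lower. The other lines, each with its own ESC and NPC libraries, gave 45 of 46 members higher in SUZ12-AID cells (50.2% of all genes), 43 in MTF2-AID cells (48.2%) and 41 in AID-JARID2 cells (47.1%), with 0 lower in each (26.3% to 26.7% of all genes). With that scaling these counts were 43, 42 and 40, and 1 member each was called lower in the MTF2-AID and AID-JARID2 lines.

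Among the alpha genes, the highest members in untagged NPCs were Pcdha12, Pcdha11 and Pcdha10, with 22.8%, 17.0% and 15.1% of the alpha sum. They and Pcdha3 were at 0 in all 3 ESC libraries. With 3 reads over the ESC group as the floor, Pcdha12 was at least 22.3-fold higher in NPCs, Pcdha11 at least 16.6-fold, Pcdha10 at least 14.8-fold and Pcdha3 at least 11.9-fold. Over all lines the alpha sum lay between 0.938 and 10.2 TPM in the 23 NPC libraries and between 0 and 0.338 TPM in the 24 ESC libraries.

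Among the beta genes, Pcdhb22 was highest in NPCs, with 15.2, 13.0 and 13.0 TPM in untagged NPCs and 0.140, 0.132 and 0 TPM in ESCs (limma log2 difference 4.60, SE 0.20, adjusted p = 7.31e-22). Pcdhb17 had 8.22, 6.29 and 6.34 TPM in NPCs and 0 in the 3 ESC libraries, that is 191 reads against none, or at least 54.4-fold. It had no read in any of the 24 ESC libraries, whichever the line or treatment. Pcdhb2 had 6.07, 6.33 and 6.91 TPM in NPCs and 0, 0 and 0.151 TPM in ESCs (log2 difference 3.67), and Pcdhb11 had 6.36, 4.97 and 5.52 TPM in NPCs and 0, 0 and 0.116 TPM in ESCs (3.51). The lower bounds of the other beta genes at 0 in these ESCs reached 40.1-fold for Pcdhb19, 39.0-fold for Pcdhb20, 31.1-fold for Pcdhb3, 27.7-fold for Pcdhb16 and 27.2-fold for Pcdhb18. Pcdhb22 carried 21.0% of the beta sum in NPCs and Pcdhb17 10.6%, so the cluster's signal was spread over many genes.

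The gamma cluster was led by 1 gene. Pcdhgc3, a C-type gene, had 79.2, 82.6 and 69.1 TPM in untagged NPCs and 5.49, 6.67 and 4.65 TPM in ESCs (limma log2 difference 3.68, SE 0.12, adjusted p = 2.94e-26). It carried 54.5% of the gamma sum in NPCs and 39.4% in ESCs, where Pcdhga12 (8.28%) and Pcdhga1 (7.12%) came next. Pcdhga5 and Pcdhga7 had log2 differences of 3.12 and 3.07. The 2 gamma genes that were not called were the same Pcdhga12 and Pcdhga1. Pcdhga12 had 1.08, 0.957 and 1.54 TPM in NPCs and 1.18, 1.20 and 1.15 TPM in ESCs, with overlapping groups (log2 difference −0.00, limma adjusted p = 1). Pcdhga1 had 2.21, 1.07 and 1.47 TPM in NPCs and 1.13, 1.07 and 0.831 TPM in ESCs (0.43, limma adjusted p = 0.089); in the SUZ12-AID line it was called, narrowly, at 0.50 (adjusted p = 0.049). That call was lost without SUZ12-AID ESC untreated replicate 1 or 2 or NPC untreated replicate 1 or 3 (0.40 to 0.46), and with a pseudocount of 0.1, no filter, voom or median-of-ratios scaling (0.18 to 0.61).

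**Figure D2:**
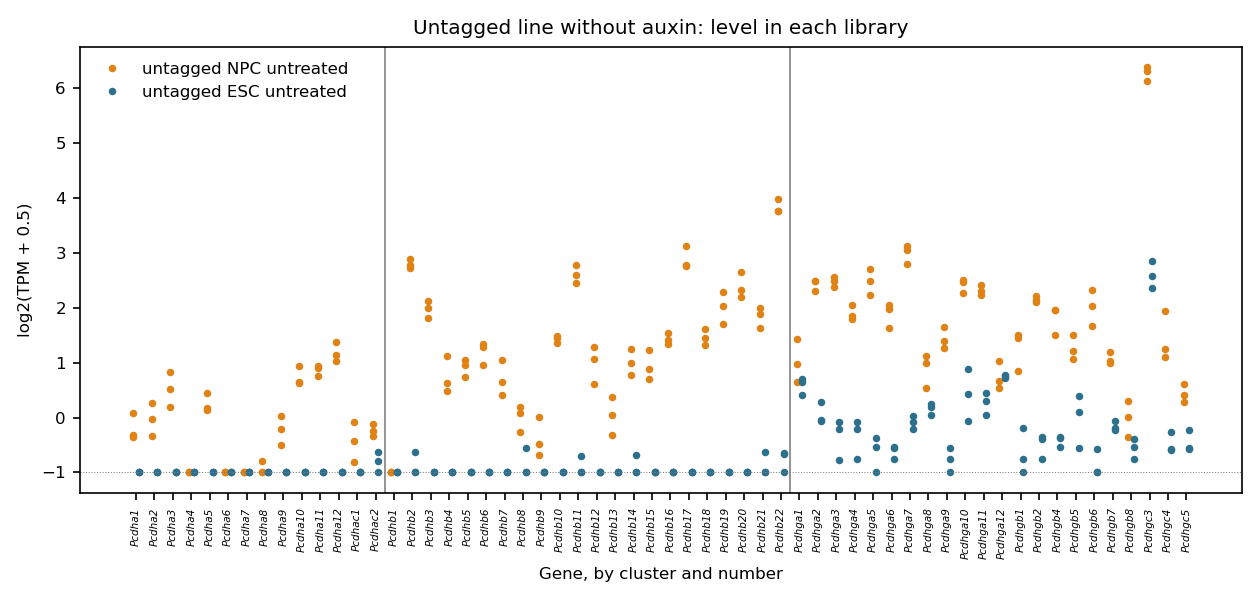
Expression of each clustered protocadherin gene in untagged cells without auxin, NPC libraries and ESC libraries as separate points (3 each), as log2(TPM + 0.5); the dotted line marks 0 TPM. Alpha and beta genes sit on or near that line in ESCs, and Pcdhga12 is a member whose NPC and ESC points overlap.

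Auxin in SUZ12-AID NPCs went with lower expression of all 3 clusters. The alpha cluster summed to 0.938 and 1.30 TPM with auxin and to 9.45, 7.63 and 7.53 TPM without. The beta cluster summed to 27.4 and 31.3 TPM with auxin and to 83.4, 73.2 and 79.5 TPM without. The gamma cluster summed to 77.5 and 69.1 TPM with auxin and to 155, 150 and 147 TPM without. The groups did not overlap in any cluster, and the mean with auxin was 13.7%, 37.3% and 48.6% of the untreated mean for alpha, beta and gamma. The reads behind these sums were 31 against 363 for alpha, 508 against 2225 for beta and 1752 against 5888 for gamma. In the untagged line the sums with auxin were 67.6%, 80.2% and 94.1% of the untreated means for alpha, beta and gamma.

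Of the 46 members tested, 35 were lower with auxin and 0 higher (limma), among 16469 genes of which 33% were called lower and 23.9% higher. The called members were 5 of 5 alpha, 13 of 20 beta and 17 of 21 gamma genes. Their median log2 differences by cluster were −1.52, −1.10 and −1.08, and the median over the 46 was −1.09, beside −0.10 over all genes. The filter can be passed through other groups of the fit, and with the filter applied to libraries outside the compared groups 34 of 46 members were called lower, beside 34.0% of all genes. Without any filter, 39 of 55 were, beside 21.5% of all genes. Median-of-ratios scaling gave 33 of 46 members lower and 0 higher, with 26.2% of all genes called lower and 30.5% higher. Of the 35 members, 28 kept their call in every alternative, while Pcdha2, Pcdhb12, Pcdhb16, Pcdhb18, Pcdhga9, Pcdhga12 and Pcdhgb1 lost it without at least 1 of the 5 libraries.

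The largest difference on the log2(TPM + 0.5) scale was that of Pcdhb17, which had 1.15 and 2.13 TPM with auxin and 9.73, 7.14 and 8.26 TPM without (limma log2 difference −2.08, SE 0.21, adjusted p = 2.37e-08). Pcdhb20 had 1.10 and 1.72 TPM with auxin and 6.28, 5.50 and 5.78 TPM without (−1.75, SE 0.21, limma adjusted p = 4.66e-07). Pcdhb11 had 1.84 and 2.63 TPM with auxin and 8.80, 6.46 and 7.57 TPM without, a log2 difference of −1.57. Each of these beta genes kept a signal in both auxin libraries well below all untreated ones. Pcdhb22, the highest beta gene, fell less, with 7.74 and 7.75 TPM with auxin and 16.4, 13.8 and 14.2 TPM without (−0.89, limma adjusted p = 0.000272), so that its share of the beta sum was 26.4% with auxin and 18.8% without. The beta genes that were not called were Pcdhb4, Pcdhb6, Pcdhb7, Pcdhb8, Pcdhb13, Pcdhb14 and Pcdhb15, with log2 differences between −0.38 and −1.02.

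The alpha cluster kept the smallest share of its untreated level. Pcdha12 had 0.0793 and 0.0696 TPM with auxin and 1.80, 1.56 and 1.80 TPM without (limma log2 difference −1.95, SE 0.27, adjusted p = 2.43e-06), which was 2 reads in all with auxin against 76 without. Pcdha3 had 0.0797 and 0.210 TPM with auxin and 1.75, 1.64 and 1.54 TPM without (−1.74, SE 0.30, limma adjusted p = 5.03e-05). Pcdha11 had no read in either auxin library and 0.902, 0.667 and 1.07 TPM without auxin, at least 7.87-fold lower (limma adjusted p = 4.32e-05). Without the C-type genes Pcdhac1 and Pcdhac2 the alpha sum was 0.630 and 0.696 TPM with auxin and 8.76, 7.19 and 7.07 TPM without, or 8.64%. Each auxin library had reads of 6 of the 14 alpha genes, against 10 to 11 in each untreated library.

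Among the gamma A and B genes, Pcdhga7 had 3.40 and 2.20 TPM with auxin and 10.6, 8.43 and 9.19 TPM without (limma log2 difference −1.61, SE 0.19, adjusted p = 3.49e-07). The sum of the 19 gamma A and B genes was 26.9 and 23.7 TPM with auxin and 70.2, 63.9 and 65.1 TPM without, 38.1% of the untreated mean, which is near the 37.3% of the beta cluster. Pcdhgc3 had 47.2 and 41.4 TPM with auxin and 81.5, 82.4 and 78.6 TPM without (−0.86, SE 0.10, limma adjusted p = 3.49e-07). It therefore took 60.5% of the gamma sum with auxin and 53.6% without. Pcdhga10, Pcdhga1, Pcdhga3 and Pcdhga2 had log2 differences of −1.29, −1.15, −1.07 and −1.01. Pcdhga12 and Pcdhga1, the members not called between stages in untagged cells, were both called lower with auxin here, Pcdhga12 at −0.88 (limma adjusted p = 0.0342). Pcdhga12 lost this call without SUZ12-AID untreated replicate 1 or 2 or auxin replicate 2 (−0.55 to −0.92), with the replicate block (−0.82) and in a fit to the compared groups (−0.88).

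**Figure D3:**
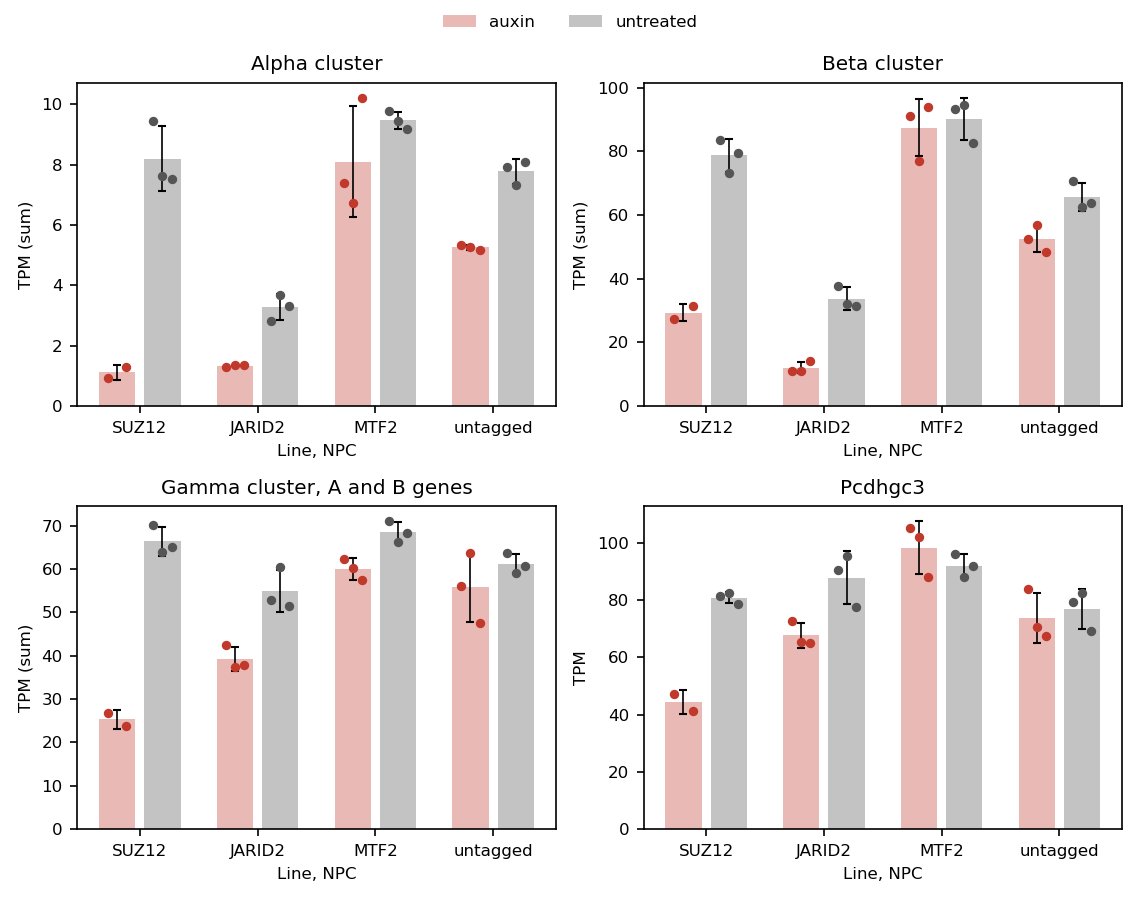
Summed TPM in NPCs of the alpha genes, the beta genes, the 19 gamma A and B genes and Pcdhgc3 (panels), by line, with auxin bars left of untreated bars; bars are means, error bars SD and points single libraries (2 for SUZ12-AID with auxin, 3 elsewhere). SUZ12-AID cells with auxin are lowest in the alpha, gamma A and B and Pcdhgc3 panels, and AID-JARID2 cells with auxin are lowest in the beta panel.

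AID-JARID2 NPCs with auxin were also lower, most of all in the beta cluster. The beta cluster summed to 11.0, 11.1 and 14.0 TPM with auxin and to 37.8, 32.1 and 31.4 TPM without, or 35.6%. The alpha cluster summed to 1.31, 1.35 and 1.35 TPM with auxin and to 2.82, 3.68 and 3.32 TPM without, or 40.8%. The gamma cluster summed to 119, 106 and 106 TPM with auxin and to 148, 160 and 133 TPM without, or 75.1%. The auxin and untreated libraries did not overlap in any of these sums, and the untreated alpha and beta sums were already below those of the other lines.

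In this line 17 of 46 members were lower with auxin and 0 higher (limma), with 15.7% of all genes called lower and 9.28% higher. They were 1 of 5 alpha, 11 of 20 beta and 5 of 21 gamma genes. Median log2 differences were −0.84 for the beta genes and −0.40 for the gamma genes, −0.59 over the 46, and −0.04 over all genes. Counted without any filter, 14 of 55 members were called lower, beside 9.52% of all genes. A fit to the JARID2 groups alone gave 10 of the 46, beside 10.6%, and median-of-ratios scaling 16 of the 46, with 13.3% of all genes called lower and 13.5% higher. Of the 17 members, 9 kept their call in every alternative.

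Pcdhb22 had 2.39, 3.66 and 4.36 TPM in AID-JARID2 NPCs with auxin and 10.5, 7.66 and 8.59 TPM without (limma log2 difference −1.27, SE 0.16, adjusted p = 4.40e-06). Pcdhb17 had 0.981, 0.937 and 1.23 TPM with auxin and 3.92, 2.40 and 3.58 TPM without (−1.28, SE 0.19, limma adjusted p = 2.20e-05). Both had every auxin library below every untreated one. Pcdhb19 had 0.681, 0.217 and 0.473 TPM with auxin and 2.02, 2.33 and 2.17 TPM without (−1.51, SE 0.23, limma adjusted p = 3.54e-05), the largest log2 difference in this line. Pcdhb11 had 0.127, 0.565 and 0.494 TPM with auxin and 2.63, 1.88 and 1.08 TPM without (−1.38, SE 0.22, limma adjusted p = 7.73e-05). Pcdhb18 had 0.546, 0.203 and 0.0885 TPM with auxin and 0.738, 1.97 and 1.45 TPM without (−1.26, SE 0.24, limma adjusted p = 0.000508). The groups of Pcdhb19, Pcdhb11 and Pcdhb18 were separate too, with all auxin libraries below 1 TPM.

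Gamma genes moved less in this line. The called ones were Pcdhgc3, with 72.8, 65.2 and 65.0 TPM with auxin and 90.6, 95.3 and 77.5 TPM without (limma log2 difference −0.37, SE 0.09, adjusted p = 0.0049), and Pcdhga5, Pcdhga7, Pcdhga6 and Pcdhga3, at −0.86, −0.79, −0.68 and −0.56. Pcdhga3 lost its call without untreated replicate 2 or 3 or any auxin replicate (−0.49 to −0.60), and Pcdhga6 without untreated replicate 2 or 3 or auxin replicate 1 or 2 (−0.59 to −0.65). Pcdhga10 had 4.15, 4.17 and 4.13 TPM with auxin and 4.56, 4.15 and 3.12 TPM without (0.08, limma adjusted p = 0.794). Pcdhga11 had 5.74, 4.55 and 3.41 TPM with auxin and 5.00, 3.88 and 3.00 TPM without (0.18, limma adjusted p = 0.613). The groups of Pcdhga10 and Pcdhga11 overlapped in AID-JARID2 cells, whereas both genes were lower with auxin in SUZ12-AID cells. The alpha gene called was Pcdha12 (−0.73, limma adjusted p = 0.0293), whose call was lost without any untreated replicate or auxin replicate 2 or 3 (−0.58 to −0.75).

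Of the 17 members called lower in AID-JARID2 NPCs, 16 were among the 35 called lower in SUZ12-AID NPCs, that is 94.1% of the shorter list and 45.7% of the longer. The exception was Pcdhb15 (−1.17, limma adjusted p = 0.0205), which lost its call without AID-JARID2 untreated replicate 2 or auxin replicate 1 or 3 (−0.88 to −1.08). In SUZ12-AID NPCs Pcdhb15 was not called, but its groups did not overlap. It had 0.149 and 0.916 TPM with auxin there and 1.33, 1.39 and 1.26 TPM without. The longer list holds 35 of the 46 members tested, so a large part of any list of members would be on it. The 2 comparisons share no library, but they come from the same fit and filter. Members whose auxin libraries all lay below all untreated ones numbered 42 of 46 in the SUZ12-AID line, where 42.5% of all genes did so, and 27 of 46 in the AID-JARID2 line, where 21.5% did.

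**Figure D4:**
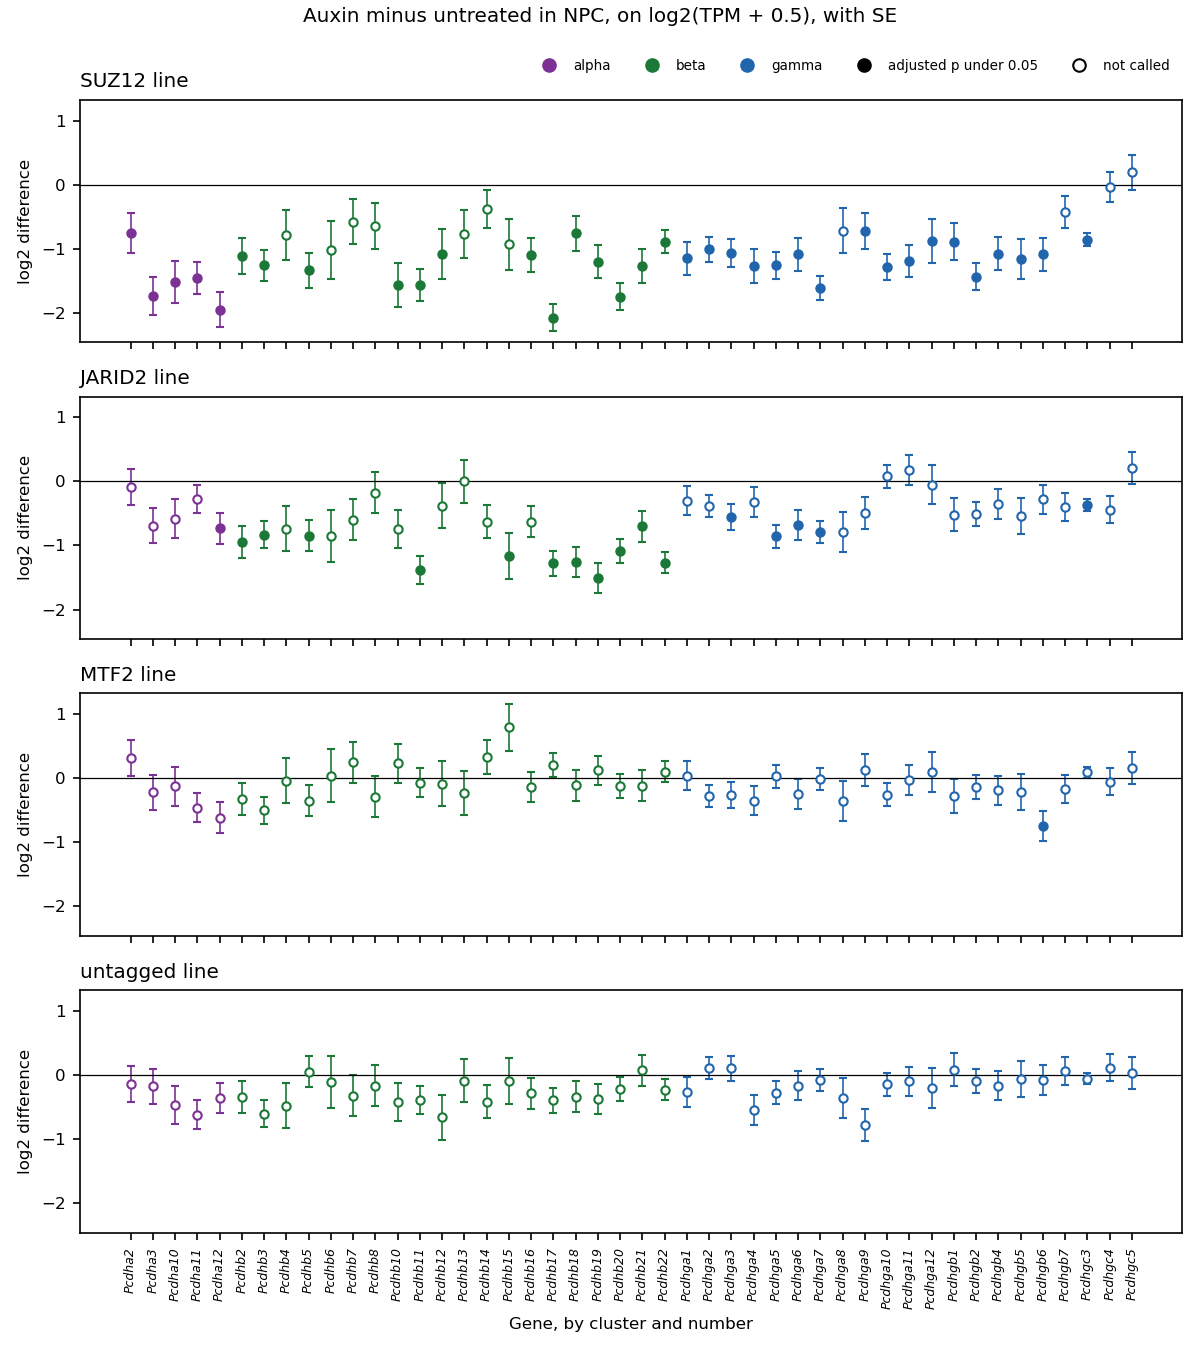
Difference between NPCs with auxin and without for each of the 46 members tested, as log2(TPM + 0.5) with its standard error, in 1 panel per line; filled points have a limma adjusted p under 0.05. Filled points lie below 0 in all 3 clusters of the SUZ12-AID panel and mostly in the beta cluster of the AID-JARID2 panel, with 1 in the MTF2-AID panel and none in the untagged panel.

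The MTF2-AID and untagged lines had few or no calls. In MTF2-AID NPCs 1 of 46 members was lower with auxin and 0 higher (limma), with 3.11% of all genes called lower and 5.03% higher. That member was Pcdhgb6, with 2.20, 1.71 and 1.10 TPM with auxin and 3.70, 3.65 and 2.12 TPM without (−0.75, SE 0.23, limma adjusted p = 0.049). Its groups overlapped, and the call was lost without untreated replicate 1 (−0.64) or 2 (−0.64) and without auxin replicate 2 (−0.78) or 3 (−0.55). The cluster sums with auxin and without were 7.38, 6.73 and 10.2 against 9.78, 9.44 and 9.20 TPM for alpha, 91.2, 77.1 and 94.0 against 93.2, 94.5 and 82.7 TPM for beta, and 173, 167 and 150 against 172, 158 and 166 TPM for gamma, with overlap in each. The gamma A and B genes alone summed to 62.4, 60.3 and 57.4 TPM with auxin and to 71.0, 66.3 and 68.4 TPM without, with no overlap.

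In untagged NPCs 0 of 46 members were called in either direction (limma, 0% of all genes in each direction), and 5 had an unadjusted p under 0.05. The sums were nevertheless lower with auxin. The alpha cluster summed to 5.33, 5.29 and 5.17 TPM with auxin and to 7.93, 7.32 and 8.10 TPM without, and the beta cluster to 52.4, 56.9 and 48.5 TPM with auxin and to 70.6, 62.4 and 63.9 TPM without. Neither overlapped, while the gamma sums did, at 143, 138 and 118 TPM with auxin and 146, 144 and 134 TPM without. The median log2 difference was −0.19 over the members and −0.02 over all genes, with 38 of 46 members below 0. Members with every auxin library below every untreated one numbered 11 of 46, beside 8.73% of all genes, and in MTF2-AID NPCs 5 of 46, beside 9.62%.

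Because the alpha and beta sums were lower with auxin in the untagged line too, each tagged line was tested against the untagged line by an interaction term. The fall in the SUZ12-AID line exceeded the untagged one for 23 of 46 members and was smaller for 0 (limma), beside 24.7% of all genes in the lower direction and 18.8% in the higher. They were 2 alpha, 7 beta and 14 gamma genes. Pcdhb17 differed by −1.69 (limma adjusted p = 4.38e-05), Pcdha12 by −1.59 (0.00116), Pcdhga7 by −1.52 (5.82e-05) and Pcdhgc3 by −0.80 (7.41e-05). The count was 15 without SUZ12-AID auxin replicate 2. With median-of-ratios scaling it was 17, beside 20.2% of all genes in the lower direction and 23.8% in the higher.

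The excess in the AID-JARID2 line was called for 4 of 46 members, all beta genes, and was in the other direction for 0 (limma, 5.94% of all genes lower and 3.1% higher). That share is close to the background. Without the filter the count was 2 of 55, beside 3.46% of all genes lower. A fit to the compared groups gave 1 of 46, beside 4.62%. Pcdhb22 differed by −1.04 (limma adjusted p = 0.00484), Pcdhb19 by −1.12 (0.0303), Pcdhb17 by −0.88 (0.0379) and Pcdhb20 by −0.87 (0.0471). The count was 1 without untagged untreated replicate 3 or untagged auxin replicate 2, and 2 without untagged untreated replicate 2 or AID-JARID2 untreated replicate 2. Pcdhb22 kept its call without any 1 library. Pcdhb19 lost its call (values between −0.93 and −1.14) without AID-JARID2 auxin replicate 2 or untreated replicate 2 or 3, or without untagged auxin replicate 1 or 2 or untreated replicate 1 or 3. Pcdhb17 lost it (−0.76 to −0.87) without AID-JARID2 auxin replicate 1 or 2 or untreated replicate 1 or 3, or without untagged auxin or untreated replicate 2 or 3. Pcdhb20 lost it (−0.73 to −0.91) without AID-JARID2 auxin replicate 1 or 3 or untreated replicate 1 or 2, or without untagged auxin or untreated replicate 2 or 3. In the MTF2-AID line the count was 0 in either direction (limma, 0.328% of all genes lower and 1.07% higher), with 2 members at an unadjusted p under 0.05. These 3 tests share the untagged libraries. Median-of-ratios scaling gave 5 members for AID-JARID2, beside 5.86% of all genes lower and 4.66% higher.

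The tagged lines were also set against each other. The auxin effect in SUZ12-AID NPCs was lower than that in MTF2-AID NPCs for 26 of 46 members (limma, 27.2% of all genes), of 5 alpha, 10 beta and 11 gamma genes, with Pcdhb17 at −2.29, Pcdhb10 at −1.80, Pcdhb20 at −1.63 and Pcdhga7 at −1.58. It was lower than that in AID-JARID2 NPCs for 9 members (17.6% of all genes), a share close to the background. Among these 9, Pcdhga10 (−1.37, limma adjusted p = 0.000403) and Pcdhga11 (−1.37, 0.0039) had the largest differences, with Pcdha12 at −1.22, Pcdha11 at −1.18, Pcdhga4 at −0.95 and Pcdhgc3 at −0.49 (0.00952). Pcdhgc3 was no longer called without SUZ12-AID auxin replicate 2 (−0.40), and Pcdhga4 (values between −0.80 and −1.10) without replicate 1 or 2 of either SUZ12-AID group or of either AID-JARID2 group. The effect in MTF2-AID NPCs was higher than that in AID-JARID2 NPCs for 9 members and lower for 0 (7.82% of all genes higher and 1.82% lower), of which 7 were beta genes, led by Pcdhb15 (1.95), Pcdhb19 (1.63), Pcdhb17 (1.48), Pcdhb22 (1.37) and Pcdhb11 (1.32). That count was 5 without MTF2-AID auxin replicate 1. With median-of-ratios scaling the 3 counts were 19 (19.4% of all genes lower and 22.9% higher), 8 (14.9% lower and 16.6% higher) and 9 (5.55% higher and 3.72% lower). In the pairs that involve MTF2-AID cells, Pcdhb15 lost its call without SUZ12-AID auxin replicate 1 (−1.15 for SUZ12-AID minus MTF2-AID) and without MTF2-AID untreated replicate 3 (1.61 for MTF2-AID minus AID-JARID2).

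The C-type genes did not move as 1 set. Pcdhac2, Pcdhgc4 and Pcdhgc5 together summed to 3.67 and 4.61 TPM in SUZ12-AID NPCs with auxin and to 3.85, 3.61 and 3.88 TPM without, 110% of the untreated mean, while the rest of their clusters was lower. This sum leaves out the C-type genes Pcdhac1 and Pcdhgc3, which were lower with auxin, so it describes a chosen part of the C-type genes. Whether these genes differed from the rest of their clusters in their auxin effect was not tested. Pcdhgc4 had 2.57 and 2.84 TPM with auxin and 2.83, 2.63 and 2.93 TPM without (limma log2 difference −0.04, SE 0.23, adjusted p = 0.896). Pcdhgc5 had 0.796 and 1.17 TPM with auxin and 0.647, 0.909 and 0.820 TPM without (0.19, SE 0.28, limma adjusted p = 0.582). Both overlapped between the groups, and with standard errors of this size a moderate change in either direction would not be detectable.

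Pcdhac2, which lies last in the alpha cluster and did not pass the filter, had 0.307 and 0.607 TPM in SUZ12-AID NPCs with auxin and 0.374, 0.0718 and 0.129 TPM without (without the filter 0.48, SE 0.29, limma adjusted p = 0.208). Its neighbour Pcdhac1 had no read in either auxin library and 0.319, 0.367 and 0.331 TPM without, at least 3.06-fold lower (without the filter −0.75, limma adjusted p = 0.0369). Pcdhgc3 was lower, as given above. In AID-JARID2 NPCs, Pcdhgc4 differed by −0.44 (limma adjusted p = 0.125) and Pcdhgc5 by 0.21 (limma adjusted p = 0.599). The sum of Pcdhac2, Pcdhgc4 and Pcdhgc5 there was 4.11, 3.73 and 3.62 TPM with auxin and 5.00, 4.24 and 4.68 TPM without, or 82.3%. Both Pcdhgc4 and Pcdhgc5 were higher in untagged NPCs than in untagged ESCs, Pcdhgc4 with 1.87, 1.64 and 3.35 TPM in NPCs and 0.171, 0.162 and 0.334 TPM in ESCs (1.91, limma adjusted p = 9.58e-11) and Pcdhgc5 with 1.03, 0.715 and 0.831 TPM in NPCs and 0.182, 0.172 and 0.356 TPM in ESCs (0.89, limma adjusted p = 0.000386).

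**Figure D5:**
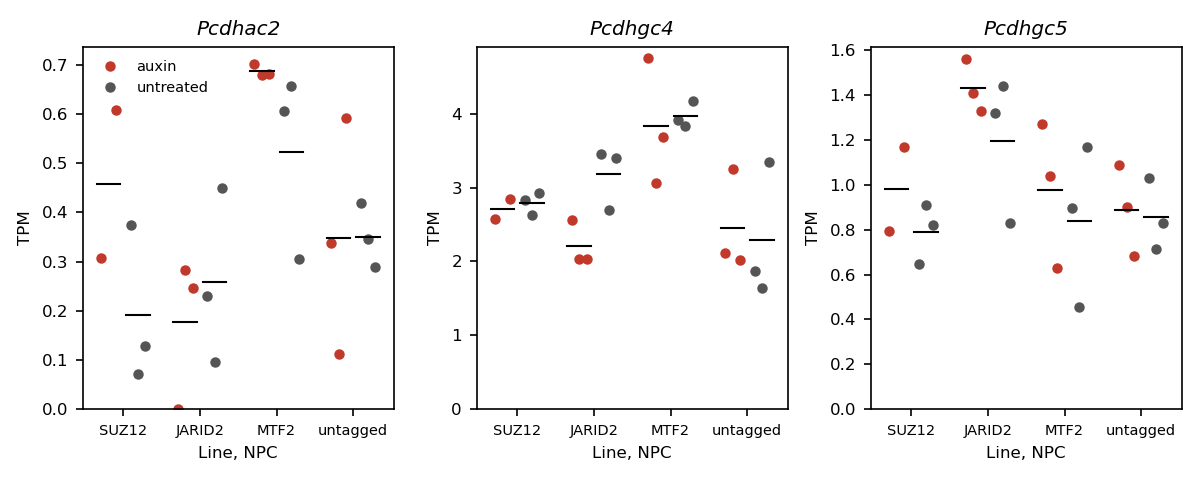
TPM of the C-type genes Pcdhac2, Pcdhgc4 and Pcdhgc5 in each NPC library, by line, with auxin left of untreated; points are libraries and lines are means. In the SUZ12-AID line the auxin and untreated points of all 3 genes overlap.

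The order of members within a cluster was largely kept where levels were lower. Across the 22 beta genes, the rank correlation of mean TPM between NPCs with auxin and without was 0.956 in the SUZ12-AID line, 0.931 in the AID-JARID2 line, 0.944 in the MTF2-AID line and 0.974 in the untagged line. Across the 19 gamma A and B genes it was 0.875, 0.926, 0.951 and 0.958 in the same order. Across the 11 alpha genes with reads it was 0.279, 0.636, 0.864 and 0.845, and the lowest of these rests on the 31 alpha reads of the SUZ12-AID auxin libraries. These are descriptions over genes that share libraries and reads, not over independent replicates. Position along the cluster went only weakly with the size of the difference. In the SUZ12-AID line the rank correlation of gene start with log2 difference was −0.105 over the beta genes tested and 0.160 over the gamma A and B genes tested, and in the AID-JARID2 line −0.301 and 0.379. Expression level went more strongly with it, at −0.645 and −0.608 in the SUZ12-AID line and −0.689 and 0.0279 in the AID-JARID2 line. Except in the last case, higher members had the larger falls on this scale, which understates the change of low genes.

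In ESCs, 12 h of auxin went with no called change in any member. Pcdhga1, Pcdhga10, Pcdhga11, Pcdhga12 and Pcdhgc3 passed the filter there, and 0 of these 5 were called in any line (limma), with 0 at an unadjusted p under 0.05. Of all genes, 5.89% were called higher and 0.94% lower in SUZ12-AID ESCs, 0.113% and 0.185% in AID-JARID2 ESCs, 0.629% and 0.457% in MTF2-AID ESCs, and 0.0596% and 0.152% in untagged ESCs. Beyond the untagged line, too, 0 of 5 were called (limma), with 0.179% of all genes higher and 0.0132% lower in SUZ12-AID, 0.00662% higher and 0% lower in MTF2-AID and 0% in either direction in AID-JARID2 ESCs. Pcdhgc3 averaged 6.81 ± 0.744 TPM with auxin and 6.02 ± 0.715 TPM without in SUZ12-AID ESCs, 7.01 ± 0.387 TPM with and 6.23 ± 1.20 TPM without in AID-JARID2 ESCs, 6.38 ± 0.555 TPM with and 7.14 ± 0.352 TPM without in MTF2-AID ESCs, and 6.32 ± 0.602 TPM with and 5.60 ± 1.02 TPM without in untagged ESCs (SD, n = 3 each). The gamma sum averaged 15.5 ± 1.64 TPM with auxin and 14.0 ± 0.757 TPM without in SUZ12-AID ESCs. The alpha and beta clusters stayed near 0 with auxin: the alpha sum averaged 0.0449 ± 0.0390 TPM with auxin and 0.0985 ± 0.0423 TPM without in SUZ12-AID ESCs, and the beta sum 0.283 ± 0.0110 TPM with auxin and 0.239 ± 0.231 TPM without. These values are a few reads per library, and a change in them was not detectable at this depth. ESCs and NPCs differed in the length of treatment as well as in stage, so these cannot be told apart.

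Before auxin, the lines were not alike in NPCs. In untreated AID-JARID2 NPCs 13 of 46 members were lower than in untagged NPCs and 0 higher (limma), with 12% of all genes called lower and 11.8% higher. The alpha sum was 2.82, 3.68 and 3.32 TPM in AID-JARID2 cells and 7.93, 7.32 and 8.10 TPM in untagged cells (42.1%), and the beta sum 37.8, 32.1 and 31.4 TPM in AID-JARID2 cells and 70.6, 62.4 and 63.9 TPM in untagged cells (51.4%). Neither overlapped, while the gamma sum was 104% of the untagged one. The called members were the alpha genes Pcdha11 (−1.09) and Pcdha12 (−0.73), the beta genes Pcdhb2, Pcdhb3, Pcdhb7, Pcdhb10, Pcdhb11, Pcdhb12, Pcdhb16, Pcdhb17, Pcdhb20 and Pcdhb22 (between −0.60 and −1.42, Pcdhb11 at the low end with limma adjusted p = 5.46e-05), and Pcdhga4 (−0.67). The calls of Pcdha12, Pcdhb3, Pcdhb7, Pcdhb12, Pcdhb16, Pcdhb22 and Pcdhga4 were each lost without at least 1 of the 6 libraries compared (−0.51 to −1.02), and each of these libraries ended at least 1 call; Pcdhb16 and Pcdhb22 lost theirs without AID-JARID2 replicate 2. The other 6 kept their calls in every alternative. The untreated AID-JARID2 libraries are also the ones that its auxin comparison starts from.

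Untreated MTF2-AID NPCs had 2 members higher than untagged NPCs and 0 lower (limma, 6.19% of all genes higher and 2.57% lower). Pcdha2 had 0.873, 1.33 and 1.96 TPM in MTF2-AID cells and 0.483, 0.697 and 0.292 TPM in untagged cells (0.91, limma adjusted p = 0.0476), and Pcdhgc4 had 3.92, 3.83 and 4.18 TPM in MTF2-AID cells and 1.87, 1.64 and 3.35 TPM in untagged cells (0.73, limma adjusted p = 0.0286). Neither overlapped between the lines. Pcdha2 lost its call (values between 0.70 and 1.06) without MTF2-AID replicate 2 or 3 or any untagged replicate, and Pcdhgc4 lost its own (0.57 to 0.76) without any MTF2-AID replicate or untagged replicate 1 or 2. The count was 0 without MTF2-AID replicate 2 or untagged replicate 1 or 2, and 1 without MTF2-AID replicate 3 or untagged replicate 3. Untreated SUZ12-AID NPCs had 0 members called (limma, 0.668% of all genes higher and 0.146% lower), with 4 at an unadjusted p under 0.05. In untreated ESCs 0 of 5 members were called in any tagged line (limma), with 1 at an unadjusted p under 0.05, Pcdhgc3 in MTF2-AID cells. Of all genes, 0.47% were called higher and 1.18% lower in SUZ12-AID, 3.09% and 3.22% in AID-JARID2, and 7.32% and 8.39% in MTF2-AID ESCs. These line comparisons share the untagged untreated libraries.

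Markers of cell types differed in the same groups, and neuron markers also in MTF2-AID NPCs, where 1 protocadherin member was called. Of all genes, 33% were lower and 23.9% higher with auxin in SUZ12-AID NPCs. The shares were 15.7% and 9.28% in AID-JARID2 NPCs and 3.11% and 5.03% in MTF2-AID NPCs. The 10 neuron markers summed to 490 TPM (range 464 to 516) in SUZ12-AID NPCs with auxin and 4666 TPM (4545 to 4794) without, with 10 of 10 called lower, and to 781 TPM (740 to 817) in AID-JARID2 NPCs with auxin and 2619 TPM (2367 to 2821) without, also 10 of 10 lower. In MTF2-AID NPCs they summed to 3136 TPM with auxin and 4422 TPM without (6 of 10 lower), and in untagged NPCs to 4054 TPM with auxin and 4727 TPM without (0 of 10). Untreated AID-JARID2 NPCs, whose alpha and beta sums were low, had 10 of 10 neuron markers lower than untagged NPCs. The neuron marker sum in SUZ12-AID NPCs with auxin, 490 TPM, was near the 479 TPM of untagged ESCs, but single markers differed in this. Between untagged NPCs and ESCs, Stmn2 and Tubb3 had log2 differences of 1.00 and 3.16. With auxin in SUZ12-AID NPCs they had −3.11 and −3.28. Gap43, Nefm and Dcx had 7.55, 8.30 and 6.32 between the stages, and only −2.26, −3.58 and −3.75 with auxin. The part of the neuron fraction in the protocadherin differences was not tested.

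Other marker lists moved too. Progenitor markers summed to 1819 TPM (1810 to 1829) in SUZ12-AID NPCs with auxin and 4391 TPM (4367 to 4409) without, with 8 of 8 lower, and to 2974 TPM (2931 to 3002) in AID-JARID2 NPCs with auxin and 4141 TPM (4058 to 4194) without, with 5 lower and 1 higher. In MTF2-AID NPCs they summed to 4676 TPM with auxin and 4668 TPM without, although Hes5 (−1.02), Fabp7 (−0.70) and Pax6 (−0.60) were called lower. Pluripotency markers summed to 1356 TPM (1332 to 1379) with auxin and 390 TPM (379 to 399) without in SUZ12-AID NPCs (7 of 8 higher, 1 lower), and to 668 TPM (646 to 693) with auxin and 461 TPM (429 to 478) without in AID-JARID2 NPCs (5 of 8 higher). The pluripotency marker that was lower was Sox2 (−0.85), which is also on the progenitor list, so these 2 lists and their sums share a gene. The marker lists that follow also share at least 1 gene among them and are not independent of each other. In SUZ12-AID NPCs, 4 of 5 mesoderm, 4 of 5 trophectoderm and 4 of 5 neural crest markers tested were higher with auxin and 0 lower, with sums of 101, 1066 and 11.4 TPM with auxin and 23.9, 240 and 1.41 TPM without. The trophectoderm markers called were the keratins Krt18 (2.44), Krt8 (2.07) and Krt7 (1.70) and Gata3 (1.09). Cdx2 was not called (1.08, limma adjusted p = 0.0896). Endoderm markers summed to 95.3 TPM with auxin and 163 TPM without, although 4 of 5 were called higher and 1 lower. The lower one was Foxa2 (−1.28), and the higher ones were Gata6 (4.41), Gata4 (3.02), Sox17 (1.32) and Ttr (0.96). The sum and the count of this list thus went opposite ways. Glia markers summed to 42.2 TPM with auxin and 37.5 TPM without (2 of 4 higher, 2 lower). No neuron, progenitor or pluripotency marker averaged under 0.1 TPM in the SUZ12-AID and AID-JARID2 NPC groups, with auxin or without. Some markers of the other lists did. In SUZ12-AID NPCs these were Gfap, S100b and Mesp1 with auxin, and S100b, Tfap2b, Sox17, Afp, Ttr and Elf5 without. The part of these cell types in the protocadherin differences was not tested.

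Other genes of the family and of its known regulation were read from lists chosen for their function. Of all genes, 33% were lower and 23.9% higher with auxin in SUZ12-AID NPCs, and 15.7% and 9.28% in AID-JARID2 NPCs. Between the stages in untagged cells, 47.6% were higher and 28.5% lower in NPCs. Of 8 protocadherins that lie outside the clusters, 7 were higher and 1 lower in untagged NPCs than in ESCs, 2 were higher and 6 lower with auxin in SUZ12-AID NPCs, 1 higher and 4 lower in AID-JARID2 NPCs, and 0 changed in MTF2-AID and untagged NPCs. Pcdh8, which is expressed in developing neural tissue and mesoderm, averaged 3.25 TPM with auxin and 50.1 TPM without in SUZ12-AID NPCs (limma log2 difference −3.75, adjusted p = 1.45e-16) and 9.05 TPM with auxin and 26.3 TPM without in AID-JARID2 NPCs (−1.49). Pcdh1 was higher with auxin in both lines (0.74 and 0.58). Of 13 classical cadherins, 3 were higher and 7 lower with auxin in each of the 2 lines; Cdh1, the epithelial cadherin, differed by 3.12 and 1.49, and Cdh2, the neural cadherin, by −1.62 and −0.31. In MTF2-AID NPCs Cdh1 was called higher too (0.81, limma adjusted p = 0.000512).

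Among 11 genes of CTCF and cohesin, which bring clustered protocadherin promoters to their enhancers, 1 was higher and 6 lower with auxin in SUZ12-AID NPCs, where Ctcf itself differed by −0.20 (limma adjusted p = 0.0432), and 1 was higher and 0 lower in AID-JARID2 NPCs. The Ctcf call was lost without SUZ12-AID untreated replicate 1 or 2 or either auxin replicate (−0.16 to −0.20), and without the filter, with voom or with median-of-ratios scaling (−0.05 to −0.20). Of 15 genes of DNA methylation and silencing, 4 were higher and 6 lower in SUZ12-AID NPCs and 4 higher and 3 lower in AID-JARID2 NPCs. In SUZ12-AID NPCs 23.9% of all genes were higher and 33% lower, close to the shares of these 15. Dnmt3b, a DNA methyltransferase that acts on protocadherin promoters in mouse development, was higher with auxin in both (1.50 and 1.37) and in MTF2-AID NPCs (0.62, limma adjusted p = 0.000361), and was not called in untagged NPCs (0.11, limma adjusted p = 0.865). Smchd1, a repressor of clustered protocadherins in mouse, had a difference of 0.01 in SUZ12-AID NPCs and was not called. Of 12 genes that flank the clusters on the chromosome, 4 were higher and 2 lower with auxin in SUZ12-AID NPCs, beside 23.9% and 33% of all genes. The higher ones were Arap3 at 2.51, Dnd1 at 2.36, Taf7, between the beta and gamma clusters, at 1.15, and Diaph1, beyond the gamma cluster, at 1.00. In AID-JARID2 NPCs 3 of these 12 were higher (Arap3 at 1.97, Dnd1 at 1.10 and Diaph1 at 0.34) and 1 lower.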

How the data were processed

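The authors deposited TPM (transcripts per 1000000) per gene symbol for 47 polyadenylated RNA libraries; STAR 2.6.1d and the mouse build mm10 are named per the submitters' processing notes, while the counter, the annotation and the handling of reads that match several genes are not given in the sources used. Symbols with no read in any library (27296 of 35856 had one) gave no information.

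Members were matched by symbol. The family, the gene lists and tests were chosen with earlier results of these data known. Limma 3.58.1 in R 4.3.3 (linear fit, empirical Bayes with trend and robust options) was run on log2(TPM + 0.5) over genes with at least 1 TPM in at least 2 libraries of the fit: 16469 genes over the 8 NPC groups, 15104 over the 8 ESC groups and 17760 over all 16 groups for NPC against ESC. P-values were Benjamini-Hochberg adjusted over all genes of a comparison; 27 comparisons were made. Tests of the difference between lines were interaction terms. Limma was checked on simulated data.

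Whole reads were recovered from the TPM steps for 100% of the genes with reads (tolerance 0.001 reads) and served for depth, for the floor of 3 reads over a group behind each lower bound, and for voom. Floors cover counting error only. SD is over replicates, which the design text calls biological. Genes named are the 5 highest members per cluster, the C-type genes, the 5 largest differences per comparison, the degron targets and up to 4 called genes per list; a few more were named after their values were seen. Groups came from the labels. Alternatives tried were pseudocounts of 0.1 and 1, no filter, a filter on libraries outside the compared groups (added after seeing the data), voom, a fit to the compared groups alone, scaling by median of ratios, a replicate block and leaving out each library.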

Additional observations from a re-analysis of the deposited data

Results flagged for a closer look

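The results below drew attention because an auxin effect in NPCs differed between lines by limma's interaction term at an adjusted p under 0.05. Values are differences of log2(TPM + 0.5) effects. The tests share groups, since each line's libraries enter several of them.

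The auxin effect in SUZ12-AID NPCs went below the untagged one for 23 members of 46 (24.7% of all genes), with Pcdhb17 at −1.69, Pcdha12 at −1.59, Pcdha3 at −1.56, Pcdhb20 at −1.52, Pcdhga7 at −1.52 and Pcdhgc3 at −0.80. The effect in AID-JARID2 NPCs went below the untagged one for 4 members (5.94% of all genes, a share close to that of the members), which were Pcdhb19 at −1.12, Pcdhb22 at −1.04, Pcdhb17 at −0.88 and Pcdhb20 at −0.87. Without single libraries that count was 1 to 5, and Pcdhb19, Pcdhb17 and Pcdhb20 each lost the call without some of them, as given in the results above.

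Set against MTF2-AID NPCs, the SUZ12-AID effect was lower for 26 members (27.2% of all genes), with Pcdhb17 at −2.29, Pcdhb10 at −1.80, Pcdhb15 at −1.72, Pcdhb20 at −1.63, Pcdhga7 at −1.58 and Pcdhgc3 at −0.96. Set against AID-JARID2 NPCs, it was lower for 9 members (17.6% of all genes, a share close to that of the members), with Pcdhga11 at −1.37, Pcdhga10 at −1.37, Pcdha12 at −1.22, Pcdha11 at −1.18, Pcdhga4 at −0.95 and Pcdhgc3 at −0.49. The MTF2-AID effect was higher than the AID-JARID2 effect for 9 members (7.82% of all genes), with Pcdhb15 at 1.95, Pcdhb19 at 1.63, Pcdhb17 at 1.48, Pcdhb22 at 1.37, Pcdhb11 at 1.32 and Pcdhgc3 at 0.46. That Pcdhgc3 difference was no longer called, at 0.40 to 0.46, without AID-JARID2 auxin replicate 2 or 3 or untreated replicate 1 or 2, or without MTF2-AID auxin replicate 1 or 2 or untreated replicate 2 or 3.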

How the results depend on the processing

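Of 428 recomputed counts of called members, 396 stayed within 1.5 times the reported count, and of 2331 recomputed differences of 159 named changes 2142 kept their direction and their call; 189 kept the direction and lost the call, and none reversed. Called members that kept their call in every alternative numbered 43 of 44 for NPC against ESC in untagged cells, 28 of 35 for auxin in SUZ12-AID NPCs, 9 of 17 for auxin in AID-JARID2 NPCs and 6 of 13 for untreated AID-JARID2 against untagged NPCs. Causes of the changes below were not tested. Auxin in MTF2-AID NPCs gave 0 members with a pseudocount of 1, without a filter, with voom and in a fit to the compared groups. Auxin in AID-JARID2 NPCs gave 10 in a fit to the compared groups. AID-JARID2 beyond untagged gave 1 with a pseudocount of 1 or in a fit to the compared groups, 2 without a filter and 7 with voom. Untreated MTF2-AID against untagged NPCs gave 1 with a pseudocount of 0.1 or median-of-ratios scaling, 4 with a pseudocount of 1 and 10 with voom. Untreated AID-JARID2 against untagged NPCs gave 22 with voom, and untreated MTF2-AID against untagged ESCs gave 1 without a filter.

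Leaving out single libraries gave these ranges. NPC against ESC gave 43 to 44 members in untagged, 43 to 45 in SUZ12-AID, 42 to 44 in MTF2-AID and 39 to 41 in AID-JARID2 cells. Auxin in NPCs gave 31 to 34 in SUZ12-AID, 13 to 17 in AID-JARID2, 0 to 1 in MTF2-AID and 0 in untagged cells. Beyond untagged, SUZ12-AID gave 15 to 24, AID-JARID2 1 to 5 and MTF2-AID 0. SUZ12-AID against MTF2-AID gave 19 to 25, SUZ12-AID against AID-JARID2 6 to 10 and MTF2-AID against AID-JARID2 5 to 9. Untreated MTF2-AID against untagged gave 0 to 2 in NPCs and 0 to 1 in ESCs, and untreated AID-JARID2 against untagged NPCs 9 to 11. Leaving out 1 of the 2 SUZ12-AID auxin NPC libraries leaves 1, which is then assumed to vary like the other groups.

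The numbers in the library names did not pair the samples: deviations from the group means correlated by −0.0163 to 0.0853 between libraries of the same number. With the replicate block the counts were 35 for auxin in SUZ12-AID NPCs, 20 in AID-JARID2 NPCs, 19 for SUZ12-AID beyond untagged, 5 for AID-JARID2 beyond untagged, 44 for NPC against ESC in untagged cells and 4 for untreated MTF2-AID against untagged NPCs.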
